A study of Arabidopsis thaliana with 18 samples.

Results

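Arabinogalactan protein genes of Arabidopsis thaliana were examined for peaks of BRIP2-GFP and BRIP1-GFP, a pair of related subunits of the SWI/SNF chromatin remodeler that is built around the ATPase BRAHMA (BRM). The genes were chosen by name: every nuclear protein-coding gene whose RefSeq symbol is AGP or FLA followed by a number was taken, which gave 49 of 27444 genes, 30 AGP and 19 FLA. The families were picked for study with their peaks in these lists already known, so the shares of genes with a peak are given as a description and were not tested.

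Chromatin immunoprecipitation with an antibody against GFP and sequencing (ChIP-seq) had been done on whole 14-day-old seedlings. The seedlings carried BRIP2-GFP or BRIP1-GFP, both in the brm-1 mutant, so that all 4 libraries came from plants without a normal BRM gene. There were 2 libraries for BRIP2 and 2 for BRIP1, each with its own peak list, and nothing in the labels says which promoter drove the fusion proteins, whether each came from 1 transgenic line, or whether the replicates were grown apart. If they were not, the spread between replicates is technical. The antibody label of BRIP1 replicate 2 reads none, against its title, so the main counts are also given without it. The label of the BRIP2-GFP input in brm-1 names the GFP antibody, and whether that sample was the control behind the BRIP2 folds is not known here. The BRIP2 lists held 7877 and 6288 nuclear peaks and the BRIP1 lists 3637 and 5343.

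Arabinogalactan proteins are cell surface and cell wall glycoproteins. Their protein backbones are rich in proline, alanine, serine and threonine, the prolines are hydroxylated, and large arabinogalactan sugar chains are attached to them. Many are tethered to the outside of the plasma membrane by a lipid anchor. Classical AGPs consist largely of such a backbone, AG peptides are very short versions of it, and fasciclin-like arabinogalactan proteins (FLAs) add 1 or more fasciclin domains, which are cell adhesion domains also found in animals. The genes act in cell expansion, secondary wall formation, pollen development and responses to salt.

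A gene was counted as having a peak when a peak summit lay between 3000 bp upstream of its transcription start site (TSS) and 1000 bp past its 3′ end. By this measure 10 of 30 AGP genes (33.3%) and 6 of 19 FLA genes (31.6%) had a summit in all 4 libraries, against 14.9% of all protein-coding genes. The AGP genes were AGP1, AGP2, AGP7, AGP10, AGP12, AGP15, AGP16, AGP17, AGP18 and AGP20, and the FLA genes were FLA2, FLA9, FLA13, FLA16, FLA17 and FLA18. Without BRIP1 replicate 2 the counts were again 10 AGP and 6 FLA genes, with 15.5% of all genes.

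In single libraries, the share of AGP genes with a summit was 46.7% and 40% in BRIP2 replicates 1 and 2, and 36.7% and 43.3% in BRIP1 replicates 1 and 2. For FLA genes it was 47.4% in each BRIP2 library, and 31.6% and 36.8% in the BRIP1 libraries. All protein-coding genes had 36.1% and 29.0% in the BRIP2 libraries, and 16.8% and 24.1% in the BRIP1 libraries. The family shares were thus above that of all genes in each of the 4 libraries. AGP genes are short (median 858 bp, against 1371 bp for FLA genes and 2078 bp for all genes), so their windows were shorter than those of most genes. In a window of 2000 bp on either side of the TSS, which has 1 width for all genes, 10 AGP and 5 FLA genes had a summit in all 4 libraries, against 9.96% of all genes. In the first window, but with the summit nearer to the gene's own TSS than to any other, 9 AGP and 6 FLA genes were counted, against 8.75% of all genes.

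**Figure D1:**
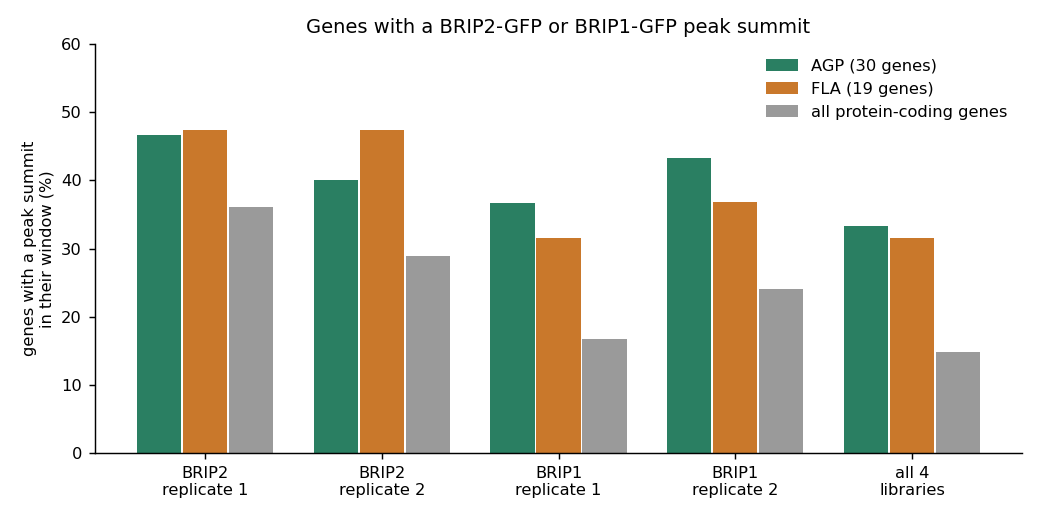
Percentage of AGP genes (30), FLA genes (19) and all 27444 protein-coding genes with a peak summit in their window, for the BRIP2 and BRIP1 libraries and for all 4 together. The AGP and FLA bars stand above the bar of all genes in each group, and in all 4 libraries they reach 33.3% and 31.6%, against 14.9%.

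The sequence under the summits is shown first for genes of the same family that share it. FLA13 (AT5G44130) and FLA9 (AT1G03870) encode short FLAs of 247 residues each. Their summits lay 590 to 619 bp and 554 to 583 bp upstream of the TSS, over 4 libraries each. When the 201 bp around the FLA13 summit was aligned with the 1500 bp upstream of the other 18 FLA genes, FLA9 scored highest (74, against 40 for the next gene, FLA15), with 102 of 148 aligned positions identical. The aligned stretch lay 652 to 509 bp upstream in FLA13 and 621 to 489 bp upstream in FLA9, and so covered the summits of both. The stretches are printed 5′ to 3′ on the strand of each gene, in TAIR10 coordinates, with runs of at least 6 identical aligned bases in capitals.
FLA13 (chr5:17760213-17760356, plus strand): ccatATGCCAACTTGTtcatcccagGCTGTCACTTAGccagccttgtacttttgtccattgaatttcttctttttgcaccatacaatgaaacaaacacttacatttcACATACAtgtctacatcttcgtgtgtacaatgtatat
FLA9 (chr1:984033-984165, minus strand): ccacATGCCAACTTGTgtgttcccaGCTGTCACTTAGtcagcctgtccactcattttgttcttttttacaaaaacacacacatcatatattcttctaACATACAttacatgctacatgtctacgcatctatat
The longest shared runs lie toward the upstream end of the stretch.

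AGP12 (AT3G13520) and AGP21 (AT1G55330) encode AG peptides of 60 and 58 residues. The sequence around the upstream summit of AGP12 scored 126 against AGP21, and at most 38 (AGP4) against the other AGP genes, with 97 of 124 aligned positions identical. In AGP12 the stretch lay 686 to 568 bp upstream of the TSS, where the 4 summits lay 575 to 657 bp upstream. In AGP21 it lay 167 to 46 bp upstream, and the summits nearest to it were 45 bp upstream in BRIP2 replicate 1 and 70 bp upstream in BRIP1 replicate 2. The other 2 libraries had no summit at that place in AGP21.
AGP12 (chr3:4408239-4408357, plus strand): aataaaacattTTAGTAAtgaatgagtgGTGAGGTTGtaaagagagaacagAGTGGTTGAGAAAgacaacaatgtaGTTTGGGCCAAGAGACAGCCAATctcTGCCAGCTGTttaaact
AGP21 (chr1:20648937-20649058, minus strand): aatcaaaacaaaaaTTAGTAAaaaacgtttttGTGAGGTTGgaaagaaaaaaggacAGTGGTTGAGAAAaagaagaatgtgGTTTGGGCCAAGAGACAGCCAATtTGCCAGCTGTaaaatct
The long run of capitals holds TGGGCC, the core of the site II element known from promoters of genes active in dividing cells, and GAGACA, which on the other strand reads TGTCTC, the auxin response element. Another pair, AGP7 and AGP4, scored 52, close to the 48 of the next gene, and is not shown. These pairs were chosen after the summit sequences had been read.

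The letters TGACAG, on either strand, stood out on reading the summit sequences and were then counted. The first 4 of these letters are the core bound by TALE homeodomain proteins, a class of plant transcription factors that control meristems and organ boundaries. Of 21 member regions with a peak of all 4 libraries, 6 (28.6%) held TGACAG within 100 bp of the summit, namely those of AGP1, AGP2, AGP7, AGP16, FLA9 and FLA13, against 10.8% of all 2982 such regions. In all 6 it lay within 50 bp, against 5.97% of all regions. In FLA9 and FLA13 it lies, as its reverse complement, in a run shared by their aligned stretches, so these hits are not separate. For AGP16, AGP7 and AGP2, whose summits of this kind lay over 500 bp upstream, the 101 bp around the summit are shown with TGACAG or its reverse complement in capitals.
AGP16 (chr2:19019998-19020098, minus strand): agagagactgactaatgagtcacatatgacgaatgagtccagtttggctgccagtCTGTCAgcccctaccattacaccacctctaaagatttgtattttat
AGP7 (chr5:26130207-26130307, minus strand): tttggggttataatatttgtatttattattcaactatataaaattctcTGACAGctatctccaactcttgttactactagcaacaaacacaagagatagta
AGP2 (chr2:9539568-9539668, minus strand): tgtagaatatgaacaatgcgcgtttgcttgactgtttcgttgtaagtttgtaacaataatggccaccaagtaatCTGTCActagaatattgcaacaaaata
The letters GCCAAC, which lie in one of the longest runs shared by FLA13 and FLA9, were also in 6 of 21 member regions within 100 bp (AGP15, AGP17, AGP18, FLA9, FLA13 and FLA18), against 7.01% of all regions. Both words were chosen after the sequences had been seen, and a match does not show that a factor binds there.

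A list of 6 known plant promoter motifs, made without reading the summit sequences, was also searched. Within 100 bp of the summit, on either strand, TTGACC or TTGACT (W-box, bound by WRKY factors) was in 5 of 21 member regions, against 30.7% of all regions. CACGTG (G-box, bound by bZIP and bHLH factors) was in 2, against 20.1%. TGTCTC was in 4, against 17.0%. TGGGCC was in 2, both of AGP genes, against 7.95%. GAGAGAGA was in 1, against 9.19%, and AAACCCTA (telo-box) was in 1, FLA17, against 1.34%. No motif of the 6 is contained in another, and each was found in 5 member regions or fewer. The median GC content of the 201 bp was 35.3% in member regions and 36.3% in all regions.

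Peak height is given as fold enrichment, the fragment pileup at the summit over that of the control, with 1 added to each. FLA13 had the highest mean fold of the 49 genes, though AGP16 was higher in BRIP2 replicate 2 (5.57). The fold of FLA13 was 6.01 and 5.50 in the BRIP2 libraries, against 5.14 and 5.50 in the BRIP1 libraries. At the summit, 203 and 140 fragments were piled up in BRIP2 (95% Poisson intervals of 176 to 233 and of 118 to 165), and 166 and 231 in BRIP1 (142 to 193 and 202 to 263). The folds of the 2 proteins overlapped. The pileups were not scaled for the background of each library, which ran from 23.2 to 41.2 fragments. The mean fold of the 4 libraries placed FLA13 at rank 54 of the 4094 genes with a summit in all 4. FLA9, 202nd in that order, had 4.53 and 4.88 in BRIP2, against 4.46 and 4.63 in BRIP1. Here too the 4 values lay close together.

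Among AGP genes, AGP16 and AGP15, both AG peptides, had the highest peaks in the BRIP2 libraries and in the mean of the 4 libraries. In the BRIP1 libraries the order was another, with AGP15 highest in replicate 1 and AGP7 in replicate 2. AGP16 (AT2G46330) had a fold of 5.70 and 5.57 in BRIP2, against 3.42 and 4.10 in BRIP1, with its highest summits 664 to 708 bp upstream. Further AGP16 summits 19 to 44 bp past the 3′ end had 2.60 in BRIP2 replicate 2, and 2.59 and 2.11 in BRIP1. In BRIP2 replicate 1 a single wide peak covered both places. AGP15 (AT5G11740) had 5.25 and 5.16 in BRIP2, against 3.94 and 4.01 in BRIP1, with the highest summit of each library 36 to 137 bp past the TSS, in the 5′ UTR. BRIP2 replicate 1 had a further AGP15 summit 832 bp upstream, of 2.35. In both genes the 2 BRIP2 values were above both BRIP1 values. At regions with a peak of all 4 libraries, fold was in general higher in BRIP2. On plain log2 fold, the BRIP2 mean was above the BRIP1 mean at 86.1% of all 2982 regions. It was so at all 21 member regions. How often the values did not overlap over all regions was not counted, neither for these 2 genes nor for those described below. AGP7 (AT5G65390), a classical AGP of 130 residues, had 4.66 and 5.06 in BRIP2, against 3.91 and 4.65 in BRIP1, 691 to 726 bp upstream. The lower BRIP2 value and the higher BRIP1 value nearly met. Peaks with a fold of at least 3 in all 4 libraries were present at 6 of 30 AGP genes and 4 of 19 FLA genes, against 3.97% of all genes.

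The lysine-rich classical AGPs AGP17, AGP18 and AGP19 differed among themselves. AGP17 (AT2G23130), known for its part in Agrobacterium attachment to roots, had 4.86 and 4.25 in BRIP2, against 3.21 and 4.46 in BRIP1, with summits from 50 bp before to 51 bp past the TSS. AGP18 (AT4G37450), which acts in female gametophyte formation, had a peak at each end. Upstream, 622 to 670 bp from the TSS, its fold was 3.06 and 3.30 in BRIP2, both above the 2.19 and 2.75 in BRIP1. Near the 3′ end it was 4.01 and 3.05 in BRIP2, against 3.05 and 3.38 in BRIP1, at a place closer to the TSS of the neighbouring gene AT4G37445. AGP19 had no summit in any library.

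The remaining AGP genes with a summit in all 4 libraries had lower peaks or summits at the 3′ side. AGP12 had 4.09 and 4.19 in BRIP2, against 3.28 and 4.17 in BRIP1, at its upstream site. A second AGP12 region at the 3′ end had 2.54 and 2.64 in BRIP2, against 2.12 and 2.09 in BRIP1. AGP1 (AT5G64310) had 3.78 and 2.97 in BRIP2, against 3.05 and 3.30 in BRIP1, just upstream of the TSS. The AGP1 values and those of the upstream AGP12 site overlapped between the proteins, while those of the 3′ AGP12 region did not.

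AGP2 (AT2G22470) had the lowest mean fold of the 10, with 3.03 and 3.10 in BRIP2, against 1.85 and 2.30 in BRIP1, 613 to 696 bp upstream. AGP20 (AT3G61640), an AG peptide, had 3.75 and 3.55 in BRIP2, against 2.65 and 2.28 in BRIP1, with summits at its 3′ end. Its peak was wide in each library and covered the whole gene and sequence upstream of the TSS. In AGP2 and AGP20 the BRIP2 values were both above the BRIP1 values. On plain log2 fold, the BRIP2 mean was the higher one at 86.1% of all regions. AGP10 (AT4G09030) had 3.71 and 4.33 in BRIP2, both above the 2.89 and 3.27 in BRIP1. Its summits lay 262 to 842 bp past the 3′ end, nearer to the TSS of AT4G09035.

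FLA17, FLA18, FLA2 and FLA16 encode longer FLAs of 403 to 462 residues, and their peaks were spread from upstream of the gene to past its 3′ end. FLA17 (AT5G06390) had 4.53 and 4.37 in BRIP2, against 3.10 and 3.33 in BRIP1, in the 5′ UTR, and a further peak 1307 to 1373 bp upstream of 3.78 and 2.97 in BRIP2, against 3.60 and 2.89 in BRIP1. FLA18 (AT3G11700), a FLA of similar length (462 residues, and 458 for FLA17), also had a summit in the 5′ UTR, 102 to 142 bp past the TSS, with 4.17 and 4.21 in BRIP2, against 3.26 and 3.53 in BRIP1. At both 5′ UTR sites the 2 BRIP2 values were above both BRIP1 values, a pattern that was not counted over all regions. FLA18 also had a peak 187 to 291 bp past its 3′ end, with 4.74 and 4.60 in BRIP2, against 3.32 and 4.63 in BRIP1.

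FLA2 (AT4G12730) had its peak in the 3′ UTR, with 3.75 and 3.67 in BRIP2, both above the 2.49 and 3.32 in BRIP1. FLA16 (AT2G35860) had a peak 2562 to 2685 bp upstream, with 2.54 and 1.82 in BRIP2, against 2.22 and 2.06 in BRIP1. The median of these summits lay in the 3′ UTR of a neighbouring gene, and the nearest TSS was that of AT2G35850. The higher FLA16 peak was past the 3′ end, with 3.19 and 2.93 in BRIP2, against 3.39 and 2.49 in BRIP1. The FLA16 values overlapped between the proteins at both places.

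**Figure D2:**
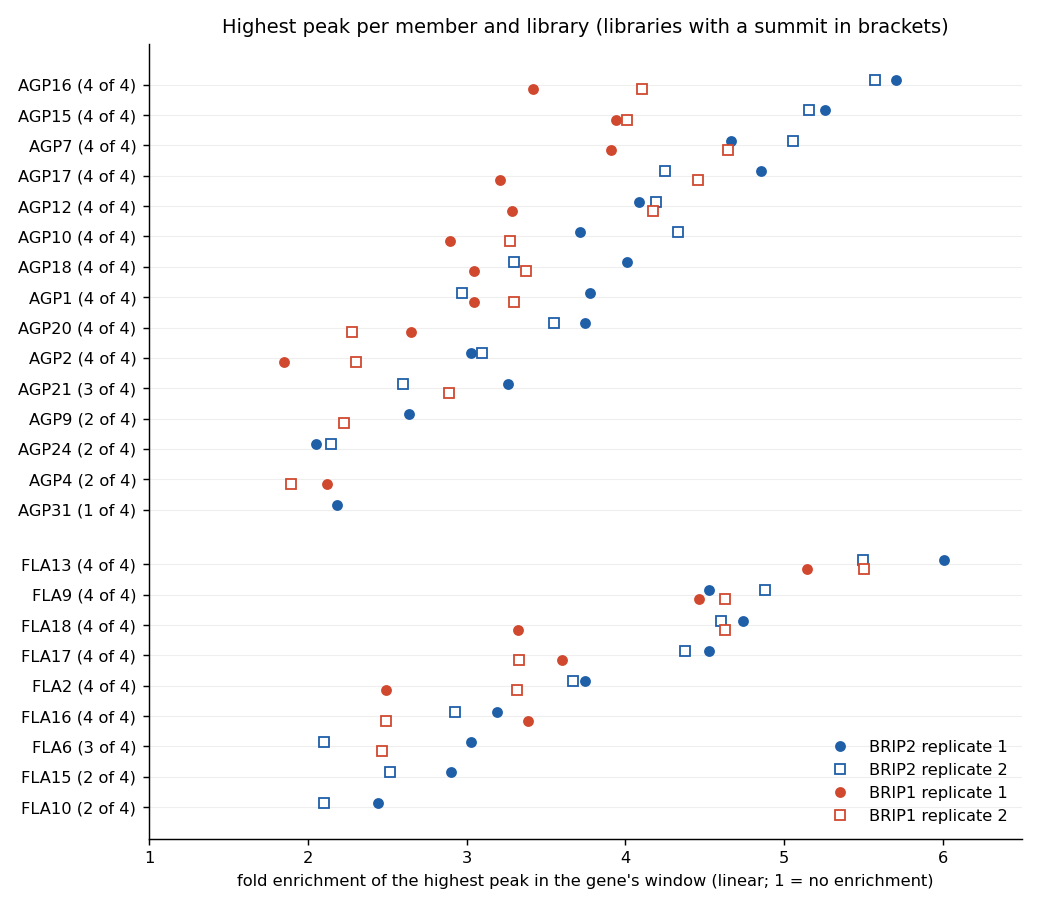
Fold enrichment of the highest peak in the window of each AGP and FLA gene with at least 1 summit, with 1 point per library (blue BRIP2, red BRIP1; filled replicate 1, open replicate 2). The horizontal axis is linear and starts at 1, and the number of libraries with a summit stands beside each gene. FLA13, at 5.14 to 6.01, has the highest mean, and AGP16 is higher in BRIP2 replicate 2. AGP16 and AGP15 show both BRIP2 points to the right of both BRIP1 points. On plain log2 fold, BRIP2 was on average higher at 86.1% of all regions with a peak of all 4 libraries.

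Over the genes with a summit in all 4 libraries, the mean fold of the highest peak had a median of 3.74 for the 10 AGP genes, 4.14 for the 6 FLA genes and 2.99 for all 4094 genes. The 4 short AGP genes of this set, AGP12, AGP15, AGP16 and AGP20, had a median of 4.26, and the 6 longer ones 3.49. The ranges of the families overlapped, at 2.57 to 4.70 for AGP and 3.0 to 5.54 for FLA genes. As whole seedlings were used, a low fold from few cells with the protein and a low fold from weak occupancy in many cells cannot be told apart.

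In 19 of 21 member regions the 4 summits lay within 150 bp, with a median spread of 71 bp, and the widest spread was 580 bp at AGP10. Regions were formed from overlapping peaks, so part of this closeness is built in. The spread over all regions was not computed. By the median of the 4 summits, 7 of the 21 regions lay 500 to 750 bp upstream of the TSS (AGP2, AGP7, AGP12, AGP16, AGP18, FLA9 and FLA13). Within 200 bp of the TSS lay 5 (AGP1, AGP15, AGP17, FLA17 and FLA18). Another 7 lay from 150 bp before to 600 bp past the 3′ end (AGP10, AGP12, AGP18, AGP20, FLA2, FLA16 and FLA18), with FLA2 at 149 bp before it. The other 2, of FLA16 and FLA17, lay farther upstream. Only summits were placed here, and the merged regions of AGP1, AGP15, AGP16, AGP17 and AGP20 were over 2000 bp wide. The AGP16 summits at its 3′ end were merged into its upstream region and not counted apart. By annotation, 16 summits were intergenic, 3 in a 5′ UTR and 2 in a 3′ UTR, and none was in the coding sequence. The same counts were not made over all regions. Of members with a summit, 17.7% to 25% by library had their highest peak within 200 bp of the TSS. For all genes with a summit the share was similar, at 14.2% to 19.7%.

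The upstream distance of 500 to 750 bp was common among the members. It held the highest peak of 7 of 23 and 8 of 21 members with a summit in the BRIP2 libraries, and of 7 of 17 and 8 of 20 members in the BRIP1 libraries. Of all genes with a summit, 5.96% and 6.27% in BRIP2, and 6.15% and 6.21% in BRIP1, had their highest peak there. The limits of 500 and 750 bp were set after the positions had been seen. FLA6, counted there in both BRIP2 libraries and in BRIP1 replicate 2, had its summits at the TSS of the neighbouring gene AT2G20515. FLA9 and FLA13 share an aligned stretch there, so they are not separate cases. In BRIP2 replicate 1, 19 of the 23 members with a summit were the gene whose TSS was nearest to it. In BRIP1 replicate 2 this held for 17 of 20. For all genes the share was 54.5% and 56.7% in the same libraries.

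**Figure D3:**
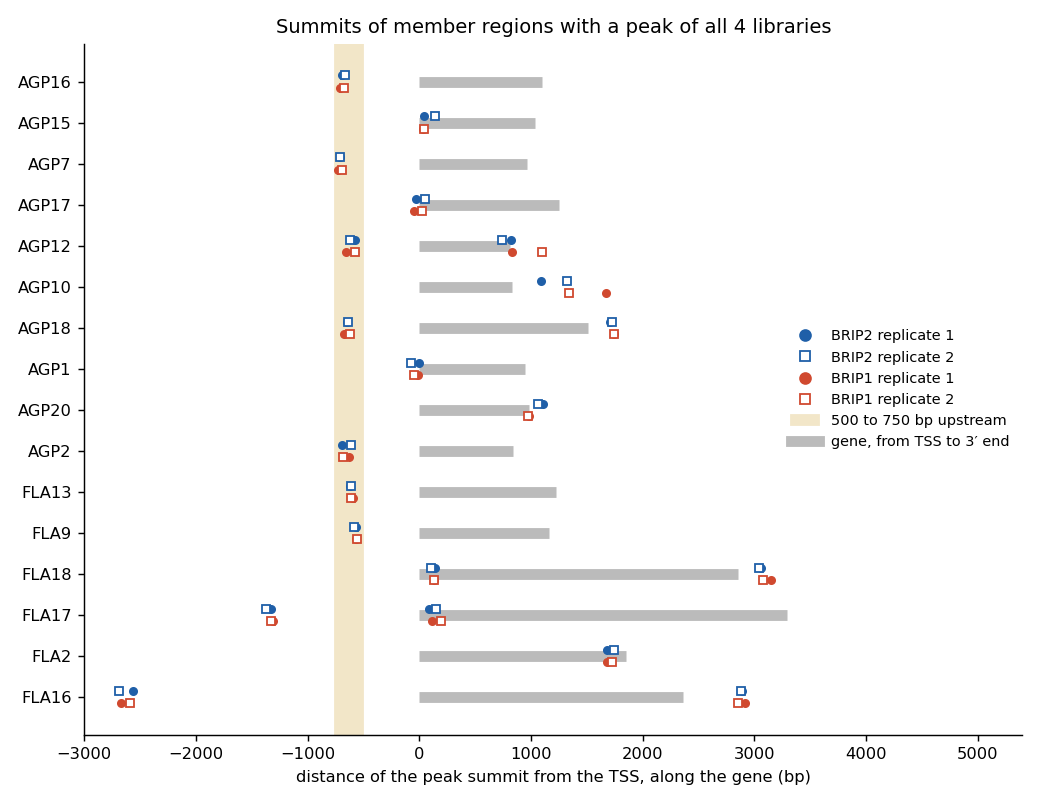
Distance of the peak summit from the TSS, in bp along the gene, for the 21 member regions with a peak of all 4 libraries (blue BRIP2, red BRIP1; filled replicate 1, open replicate 2). Grey bars show each gene from TSS to 3′ end and the shaded band 500 to 750 bp upstream, which holds 7 regions.

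A further 8 members had a summit in 1 to 3 libraries. Both BRIP2 libraries and neither BRIP1 library had a summit at 1 AGP and 2 FLA genes, 6.12% of members, against 5.62% of all genes. These were AGP24, a pollen AG peptide, with 2.05 and 2.15 in BRIP2, FLA15 with 2.90 and 2.52, and FLA10 with 2.44 and 2.104, the last nearer to the TSS of ZPR2. All 6 values were under 3, and these counts were 0 with lists of equal length.

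AGP4 (AT5G10430) showed the opposite pattern. It had a fold of 2.12 and 1.90 in the BRIP1 libraries, 570 to 646 bp upstream, and no summit in either BRIP2 library. Of all genes, 0.135% had a summit in both BRIP1 libraries alone. The AGP4 peaks were weak, with pileups of 68 and 79 fragments over background levels of 31.5 and 41.2, and were also lost when lists of equal length were used.

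Of the others, AGP21 had a summit close to its TSS in BRIP2 replicate 1 (3.26) and BRIP1 replicate 2 (2.89). Both BRIP2 libraries had AGP21 summits 886 to 955 bp and 2587 to 2618 bp upstream, and the one farther upstream was the highest of BRIP2 replicate 2 (2.60) and lay nearer to the TSS of AT1G55340. FLA6 had 3.03 and 2.104 in BRIP2 and 2.47 in BRIP1 replicate 2, at the TSS of its neighbour AT2G20515. AGP9 had 2.64 in BRIP2 replicate 1 and 2.23 in BRIP1 replicate 2. AGP31, which carries a cysteine-rich PAC domain, had 2.18 in BRIP2 replicate 1 only, and higher summits of 2.98 and 2.77 in the BRIP2 libraries just outside the window, 1485 and 1449 bp past the 3′ end.

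No summit in any library was found for 25 of 49 members (51.0%), against 60.4% of all genes. They were AGP3, AGP5, AGP6, AGP11, AGP13, AGP14, AGP19, AGP22, AGP23, AGP25, AGP26, AGP27, AGP30, AGP40, AGP41, FLA1, FLA3, FLA5, FLA7, FLA8, FLA11, FLA12, FLA14, FLA20 and FLA21. Among them were 4 of the 5 AGP genes known for pollen (AGP6, AGP11, AGP23 and AGP40), and FLA11 and FLA12, which are known for secondary walls of the stem. AGP6 and AGP11 had summits just outside the window. All 4 libraries had a peak 1118 to 1189 bp past the 3′ end of AGP6, with 2.57 and 2.60 in BRIP2, against 2.62 and 2.61 in BRIP1. AGP11 had summits 3015 to 3176 bp upstream, of 1.96 and 2.15 in BRIP2 and 2.37 in BRIP1 replicate 2. Just inside it, AGP10 had a summit of 2.89 at 842 bp past the 3′ end in BRIP1 replicate 1.

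SOS5 (AT3G46550), which acts in salt tolerance and root growth, is named FLA4 only as a synonym and so was not a member. It had a summit in all 4 libraries, with 3.58 and 3.10 in BRIP2, against 2.99 and 2.87 in BRIP1, 2211 to 2258 bp past its TSS.

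The difference between BRIP2 and BRIP1 was tested at the 2982 regions with a peak of all 4 libraries, on log2 fold centred on the median of each library, with limma and Benjamini-Hochberg adjustment over all regions. An adjusted p under 0.05 was reached by 46 regions (1.54%), 16 of them higher in BRIP2 and 30 lower. None of the 21 member regions was among them. At an unadjusted p under 0.05 there were 3 member regions (AGP16, AGP2 and AGP20) and 526 regions in all (17.6%). AGP16 had a BRIP2 minus BRIP1 difference of 0.35 ± 0.11 (SE, log2 scale, limma adjusted p = 0.102), AGP20 of 0.33 ± 0.13 (limma adjusted p = 0.179) and AGP2 of 0.33 ± 0.13 (limma adjusted p = 0.179), each with 2 BRIP2 and 2 BRIP1 libraries. The median over member regions was 0.03, beside -0.01 over all regions. FLA13 differed by -0.12 ± 0.09 (SE, limma adjusted p = 0.511) and FLA9 by -0.19 ± 0.11 (SE, limma adjusted p = 0.372).

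The centring set this outcome. At these regions fold was higher in BRIP2 in general, with a median over the 2982 regions of 3.33 and 3.18, against 2.68 and 2.85 in BRIP1. Over the whole peak lists the median fold was 2.56 and 2.64 in BRIP2, and 2.59 and 2.44 in BRIP1. Without centring, limma called 682 regions higher (22.9%) and 12 lower, and 7 of 21 member regions were higher, those of AGP2, AGP10, AGP15, AGP16, AGP18 (upstream), AGP20 and FLA17 (5′ UTR). Their differences lay between 0.37 and 0.59 on the log2 scale, where the median of all regions was 0.22.

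**Figure D4:**
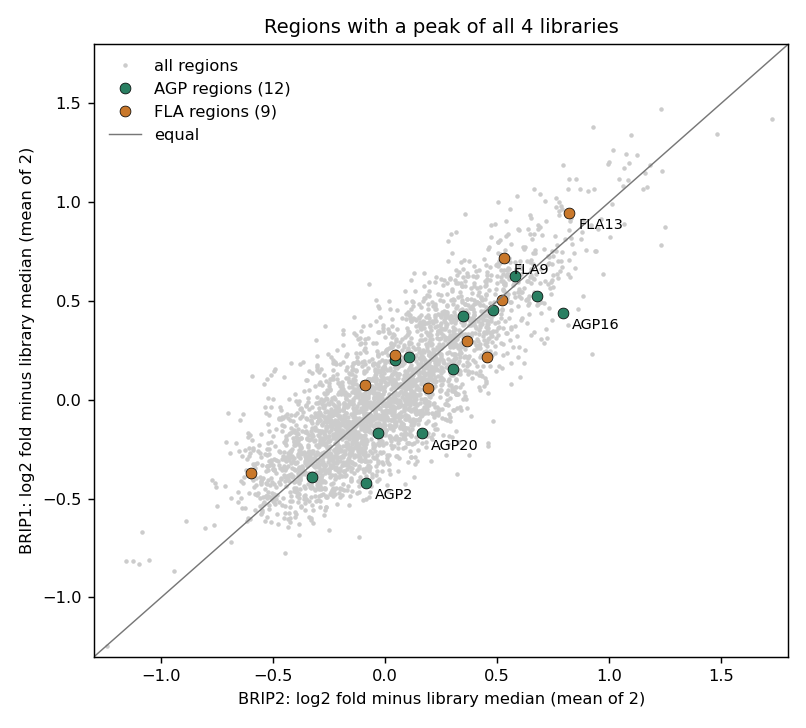
Log2 fold minus the library median, as the mean of 2 BRIP2 libraries (horizontal) and of 2 BRIP1 libraries (vertical), for the 2982 regions with a peak of all 4 libraries. The 12 AGP regions and 9 FLA regions are coloured and lie within the spread of all regions, with AGP16, AGP20 and AGP2 below the line of equal values.

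The proteins were then compared by length and composition. The genes were chosen by name, and the AGP and FLA names go with the backbone and domains described above. A difference in composition between the families therefore follows from the choice. The 18 AGP proteins of at least 100 residues had 34.3% to 72.6% proline, alanine, serine and threonine, the 12 shorter ones 38.1% to 50.8%, and the 19 FLA proteins 25.8% to 43.1%. Length did not separate AGP genes with a peak from the rest. Of the short AGP genes 4 of 12, and of the longer ones 6 of 18, had a summit in all 4 libraries. The longer AGP proteins with a summit in all 4 libraries had a median share of these residues of 61.5%, and those with no summit 61.8%.

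Among FLA proteins, the 6 with a summit in all 4 libraries had 25.8% to 31.6% proline, alanine, serine and threonine (median 29.7%), and the 10 with no summit 29.95% to 43.1% (median 36.4%). Their median lengths were 424 and 279 residues, and their median gene lengths 2107 and 1245 bp. The ranges overlapped between 29.95% and 31.6%, where FLA2, FLA9 and FLA13 lay. FLA20, with no summit, set the lower end of this overlap. The 3 FLA proteins with a summit in 1 to 3 libraries had 28.6% to 41.2% (median 34.8%). A longer gene also has a longer window, and the part of gene length in this difference was not tested.

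**Figure D5:**
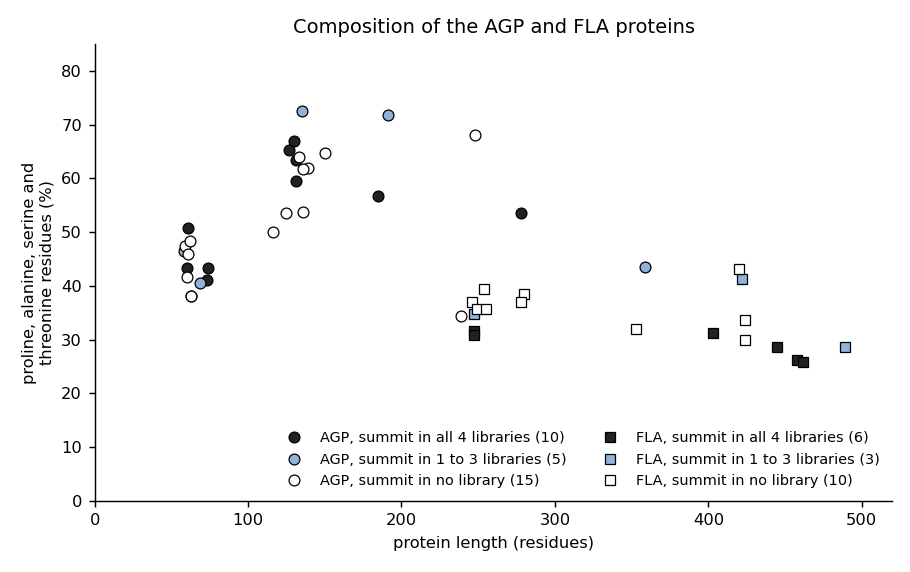
Length of each AGP (circles) and FLA (squares) protein in residues against its share of proline, alanine, serine and threonine in percent, filled by the number of libraries with a summit. The 6 FLA proteins with a summit in all 4 libraries lie at 25.8% to 31.6%, and the 10 with none at 29.95% to 43.1%.

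Enzymes that hydroxylate the prolines and build the arabinogalactan chains were looked at as the pathway behind these proteins. Only 9 of 31 listed names matched a RefSeq gene, and none of the 9 had a summit in all 4 libraries, against 14.9% of all genes, while 6 of 9 had none in any, against 60.4% of all genes. FUT4, which adds fucose to arabinogalactan, came closest, with 2.51 and 2.76 in BRIP2 and 2.21 in BRIP1 replicate 2. Of other hydroxyproline-rich cell wall proteins, 13 genes matched from 38 names. A summit in all 4 libraries was present at 3 of the 13 (23.1%), against 14.9% of all genes. No summit in any library was found at 6 of the 13, against 60.4% of all genes. LRX3, a leucine-rich repeat extensin that acts in cell expansion, had 5.73 and 5.16 in BRIP2, against 3.79 and 4.22 in BRIP1. The extensin EXT3, needed for the cell plate of the embryo, had 3.81 and 3.34 in BRIP2, against 2.37 and 3.04 in BRIP1, and EXT12 had 3.33 and 2.93 in BRIP2, against 2.68 and 2.70 in BRIP1.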

How the data were processed

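The series has 18 samples, and 4 anti-GFP ChIP-seq libraries with a peak list were used; the other 14 were not analysed here. The submitters' processing notes give TAIR10 as the build and MACS2 2.1.1, Bowtie and deepTools as tools. Each list had been called on 1 library, not on pooled ones, and which control was used was not given in the sources used here. The deposited columns are the fold enrichment at the summit (a ratio), −log10 p, −log10 q and a score equal to 10 times −log10 q without its decimals; the authors' lowest −log10 q was 2.04 to 2.31. No library totals were used. Pileup and control were solved from fold and −log10 p, and at least 99.89% of pileups came out within 0.05 of a whole number, at a background of 29.7 and 23.2 fragments in BRIP2 and 31.5 and 41.2 in BRIP1. Poisson intervals cover counting error only, as reads carried no molecular identifiers.

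Genes, transcripts and sequence are from RefSeq TAIR10.1, whose nuclear coordinates are those of TAIR10. The members and gene lists were chosen with earlier results of these data known. Every member with a summit in all 4 libraries was named, and every other member at least by name. Plastid peaks (2 to 7 a library) were left out. Regions were merged over libraries where peaks overlapped by at least 1 bp, and each library's highest peak was used. limma 3.58.1 (R 4.3.3, trend, 2 libraries a protein) was tested on simulated data. Proteins were translated from the annotated coding sequence, the longest per gene, since no protein table was used here. Local alignments scored 2 for a match, -2 for a mismatch and -4 for a gap. Python 3.11.15, pandas 2.3.3 and scipy 1.17.1 were used. Alternatives were other windows, peak thresholds, equal list lengths (3637 peaks), scalings, overlaps, a replicate block and each library left out.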

Additional observations from a re-analysis of the deposited data

How the results depend on the processing

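The number of AGP genes with a summit in all 4 libraries was 6 when peaks had to reach a fold of 3, and stayed within 8 to 11 under the other alternatives. For FLA genes it was 4 to 7. Over the same alternatives the share of all genes ranged from 3.97% (fold of 3 or more) to 20.5% (without BRIP1 replicate 1). Counts of genes with a summit for 1 protein alone were 0 to 2 per family, and all 0 with equal lists or a −log10 q of at least 10. The count of regions that differed between BRIP2 and BRIP1 was 694 without centring, 89 with solved pileups, 108 with 50% reciprocal overlap and 0 with a replicate block, and 30 to 116 when 1 library was left out (30 without BRIP1 replicate 1, 116 without BRIP2 replicate 1). Member regions called were 7 without centring and 0 under each other alternative. The replicate numbers do not pair the libraries by the labels, and deviations of same-numbered libraries had a correlation of 0.0083 across 2982 regions; what the block changes cannot be read as a weaker effect. Within 50 bp of the summit, W-box was in 2, AuxRE in 2, G-box in 1, TGGGCC in 1 and GAGAGAGA in 0 member regions.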
